A study of Homo sapiens with 38 samples.

Results

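BE2C cells that had been kept in GSK-J4 for 48 h were compared with BE2C cells kept in it for 24 h, to describe which RNAs still changed after the first day of treatment. Both groups are treated, and the comparison therefore starts from cells that had already responded. Members were chosen by title: 4 files titled for 48 h and 4 titled for 24 h, which is 8 of the 38 samples of the series. Files that share the first replicate number were summed, which left 2 libraries for each time. The 2 libraries taken at 0 h (4 files) served as a second reference and entered the same fit. BE2C is a human neuroblastoma cell line with MYCN amplification, and the labels name no allele or transgene for any group. GSK-J4 was given at 2.5 uM to all treated cells, and the labels give the 0 h cells the same treatment name with a time of 0 h. No vehicle control is named for 24 h or 48 h, so that the agent, its exposure time and the time in culture cannot be told apart. The labels and the methods do not say that the 2 libraries of a time came from separate cultures, and p-values here then measure the spread between these libraries, which may be technical. One label of the series says that the RNA was extracted from xenograft tissue, whereas the source label reads cell line and the methods describe treated cells.

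GSK-J4 is a cell-permeable ester that cells convert to GSK-J1, an inhibitor of the KDM6 demethylases, which remove methyl groups from lysine 27 of histone H3. Polycomb repressive complex 2 places that mark, and genes that carry it are usually silent. The inhibitor competes with 2-oxoglutarate and contacts the metal ion of the active site, a site that other oxygenases share, among them the prolyl hydroxylases that mark hypoxia-inducible factor (HIF) for destruction. Neuroblastoma is a tumour of sympathetic precursors, and MYCN, HAND2 and their partners hold its cells in a proliferating adrenergic state.

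The 24 h libraries held 47401124 and 47002952 counts on genes and the 48 h libraries 63433818 and 49058374, and levels are given as counts per 1000000 counts (CPM). A floor of 3 counts in a library corresponds to at most 0.0829 CPM over all 6 libraries, and such floors cover counting error only. All 9 sympathetic markers were detected in every library, with a summed level of 4228 to 4233 CPM at 24 h and 3619 to 3646 CPM at 48 h. Of the 7 Schwann lineage markers, SOX10, CDH19 and FABP7 were below the expression filter, and the sum of the other 4 was 3.10 to 3.24 CPM at 24 h and 5.47 to 5.81 CPM at 48 h. The fibroblast markers that passed the filter (5 of 6, not COL1A2) summed to 6.66 to 6.70 CPM at 24 h and 7.43 to 7.75 CPM at 48 h. Of the endothelial markers KDR was below the filter, and CDH5 and VWF summed to 0.885 to 1.32 CPM at 24 h and 2.30 to 2.65 CPM at 48 h. VWF was at 0.738 and 1.17 CPM at 24 h and 2.16 and 2.33 CPM at 48 h and CDH5 did not pass the test. VWF rose by 1.23 on the log2 scale (standard error 0.213, edgeR adjusted p = 3.2e-06). Of the blood markers PTPRC, CSF1R, HBB and HBA2 were below the filter, and CD14 was at 0.232 and 0.255 CPM at 24 h and 0.154 and 0.162 CPM at 48 h. Reads on no gene feature made up 11.5% to 11.8% of the reads at 24 h and 13.9% to 14.2% at 48 h, and their part in the results below was not tested. In a bulk library, fewer cells of a type and less RNA per cell cannot be told apart.

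Of 17734 genes tested, 9551 (53.9%) differed between 48 h and 24 h at an edgeR adjusted p under 0.05, of which 4593 (25.9%) were higher and 4958 (28.0%) lower at 48 h. Most of these differences were small. Of the lower genes 1159 fell by more than 0.5 on the log2 scale (6.54% of those tested), and 971 genes rose and 310 fell by more than 1 on the log2 scale. The balance of higher against lower genes depended on the scaling: with upper quartiles in place of TMM factors 5558 were higher and 4007 lower, and the median of all genes moved from 0.011 to 0.073. It also followed the level of the gene. Among the 4542 genes with a mean under 1 CPM, 19% were higher and 3.19% lower, with a median log2 fold change of 0.279, whereas among the 2063 genes at 100 CPM or more 30.9% were higher and 50.6% lower, with a median of -0.074. At 1 to 10 CPM 27.9% were higher and 17.9% lower, and at 10 to 100 CPM 27.7% and 43.1%. Counts for a group of genes are to be read against the shares of all genes and of its level. This holds also where a list is given without them. With 2 libraries against 2, an exact permutation test cannot give a p below 0.333, and the calls rest on the spread that edgeR shares across genes.

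**Figure D1:**
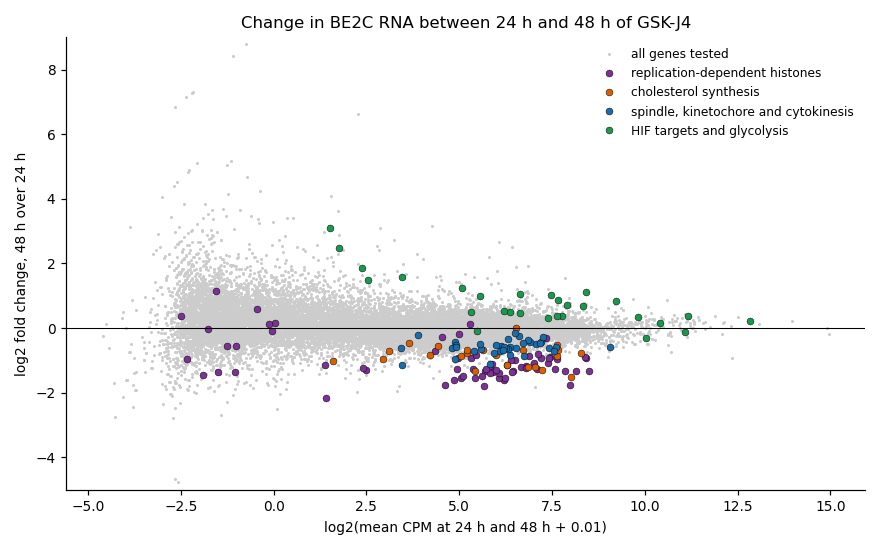
Each grey point is a gene tested; the x axis is log2(mean CPM at 24 h and 48 h + 0.01) and the y axis is the log2 fold change of 48 h over 24 h, with members of 4 gene lists coloured. The medians of histone (-1.21), cholesterol (-0.83) and spindle genes (-0.58) lie below 0 and that of HIF targets (0.61) above it, and genes of low level spread upwards.

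Gene lists were used to order these changes by function, and each list is given by the count of its members that passed the test in each direction and by its median. The first day of treatment (24 h against 0 h) is set beside the second. It shares the 24 h libraries with the main comparison, so that an error in those 2 libraries moves both differences in opposite directions. On the first day 4833 genes (27.3%) were higher and 4969 (28.0%) lower. A further contrast tested whether the change of the second day exceeded that of the first, and it was higher for 2729 genes (15.4%) and lower for 3243 (18.3%).

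**Figure D2:**
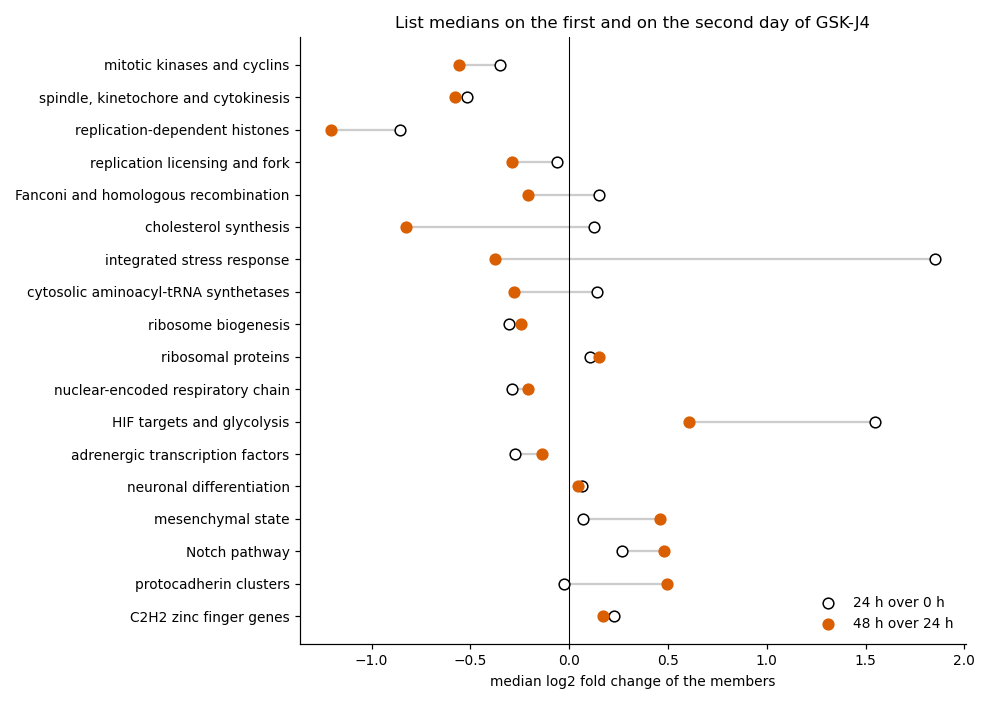
Median log2 fold change of the members of each gene list (x axis) on the first day (open, 24 h over 0 h) and on the second (filled, 48 h over 24 h). Mitotic and histone lists lie below 0 on both days, cholesterol synthesis only on the second (-0.83 against 0.13), and the integrated stress response moves from 1.85 to -0.37.

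Genes of mitosis went on falling during the second day. The list of mitotic kinases and cyclins holds the enzymes that drive entry into and exit from mitosis, and 20 of its 22 members were lower at 48 h than at 24 h. The list of spindle, kinetochore and cytokinesis genes, which build the machinery that segregates chromosomes, had 38 of 38 lower. The median log2 fold change of the members was -0.56 on the second day and -0.35 on the first for the kinases and cyclins, and -0.58 and -0.52 for the spindle genes. All genes had a median of 0.011, and 28.0% of them were lower. Of all genes at 10 to 100 CPM 43.1% were lower, and of those at 100 CPM or more 50.6%. At these 2 levels 13 of 15 and 7 of 7 kinases and cyclins were lower. For spindle genes it was 21 of 21 and 17 of 17. PLK1 encodes the polo-like kinase that acts throughout mitosis (chromosome 16, 23688977 to 23701688, GRCh37). It was at 116 and 119 CPM at 0 h, 47.4 and 48.8 CPM at 24 h and 22.8 and 20.2 CPM at 48 h. The 48 h libraries were both below the 24 h libraries, and those below the 0 h libraries. PLK1 fell by 1.16 on the log2 scale (standard error 0.0476, edgeR adjusted p = 4.8e-25). AURKB, the kinase of the chromosome passenger complex, was at 38.2 and 39.3 CPM at 24 h and 20.7 and 21.5 CPM at 48 h. AURKB fell by 0.88 on the log2 scale (standard error 0.0488, edgeR adjusted p = 2.9e-20). CCNF, an F-box cyclin, was at 88.8 and 86.7 CPM at 24 h and 51.3 and 50.1 CPM at 48 h. CCNF fell by 0.79 on the log2 scale (standard error 0.0358, edgeR adjusted p = 1.7e-23). Neither time overlapped the other for these 2 genes. CENPA, the histone H3 variant of centromeres, was at 38.8 and 39.5 CPM at 0 h, 15.8 and 14.4 CPM at 24 h and 7.12 and 6.56 CPM at 48 h. CENPA fell by 1.14 on the log2 scale (standard error 0.0739, edgeR adjusted p = 7.5e-18). HMMR, a spindle assembly protein, was at 79.3 and 76.3 CPM at 24 h and 36.4 and 36.2 CPM at 48 h. HMMR fell by 1.10 on the log2 scale (standard error 0.0386, edgeR adjusted p = 9.7e-28). CDC20, the activator of the anaphase-promoting complex, was at 39.7 and 38.0 CPM at 24 h and 20.3 and 19.9 CPM at 48 h. CDC20 fell by 0.95 on the log2 scale (standard error 0.048, edgeR adjusted p = 1.1e-21). Each of the 6 genes was already lower at 24 h than at 0 h. The 2 members that did not pass the test were NEK2 and WEE1, with log2 fold changes of -0.043 and 0.08. In the G2/M list of Seurat, 51 of 54 genes were lower and 2 higher, with a median of -0.50. The contrast of the 2 days was not uniform within these lists: of the 38 spindle genes, the second-day change was below the first-day change for 9 and above it for 9.

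Many promoters of mitotic genes carry a cell cycle homology region, the letters TTTGAA or TTCGAA, where the DREAM and MuvB complexes bind. The promoter windows of RefSeq (GRCh38.p14) run from 250 bases before to 50 after the annotated start, and 27 of the 33 spindle genes with a window held 1 of these 2 hexamers on either strand (81.8%), as did 9 of 16 mitotic kinases and cyclins (56.2%). Of all genes with a window, 5336 held one (19.5%), and of the genes tested here 15.6%. CCAAT was present in 26 of the 33 spindle windows (78.8%), against 39.7% of all and 43.3% of those tested. The letters are a description and were not tested as sites. The windows of the 3 mitotic genes with the largest fall that hold the hexamer are shown. The hexamer is in capitals, and coordinates are from an exact match to GRCh37. Where a window held several matches, the stretch around the match nearest the start was taken.
PLK1 (chr16:23690131-23690236, plus strand, bases -79 to 27 from the start): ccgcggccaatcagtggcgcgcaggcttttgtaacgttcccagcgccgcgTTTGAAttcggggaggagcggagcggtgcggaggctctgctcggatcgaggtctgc
CENPA (chr2:27008856-27008961, plus strand, bases -68 to 38 from the start): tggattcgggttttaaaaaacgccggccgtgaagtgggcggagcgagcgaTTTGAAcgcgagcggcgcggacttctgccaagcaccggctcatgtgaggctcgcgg
HMMR (chr5:162887566-162887671, plus strand, bases -72 to 34 from the start): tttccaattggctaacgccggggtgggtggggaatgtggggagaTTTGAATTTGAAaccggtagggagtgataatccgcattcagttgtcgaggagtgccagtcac
The hexamer shown lay within 50 bases of the annotated start in all 3 windows, which the choice of the nearest match favours. HMMR held it 2 times in a row.

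Replication-dependent histone genes had the lowest median of the lists examined. These intronless genes supply the histones that package new DNA, and most of their transcripts end in a stem-loop and not in a poly(A) tail. Of 69 members that passed the filter (89 are listed), 58 were lower at 48 h than at 24 h and 2 were higher. The median log2 fold change was -1.21, against -0.86 on the first day. At 100 CPM or more 35 of 35 were lower, against 50.6% of all genes there. At 10 to 100 CPM 16 of 17 were lower, against 43.1%. The summed level of the list was 7551 to 7746 CPM in the 24 h libraries and 3426 to 3574 CPM in the 48 h libraries, against 13918 to 14333 CPM at 0 h. All 4 treated libraries were below the 0 h libraries and the 2 later ones below the 2 earlier. HIST1H1B, a linker histone H1, was at 881 and 881 CPM at 0 h, 402 and 388 CPM at 24 h and 117 and 116 CPM at 48 h. HIST1H1B fell by 1.76 on the log2 scale (standard error 0.0294, edgeR adjusted p = 6.2e-40). HIST1H2BI, a core histone H2B, was at 78.1 and 80.0 CPM at 24 h and 23.1 and 22.9 CPM at 48 h. HIST1H2BI fell by 1.78 on the log2 scale (standard error 0.0407, edgeR adjusted p = 8e-35). HIST1H3J, a core histone H3, was at 36.4 and 38.9 CPM at 24 h and 11.5 and 11 CPM at 48 h. HIST1H3J fell by 1.75 on the log2 scale (standard error 0.0526, edgeR adjusted p = 3e-30). The fall was shared by all classes of histone: 5 of 5 tested H1 genes were lower, 12 of 15 H2A, 18 of 22 H2B, 12 of 12 H3 and 11 of 13 H4. In the large HIST1 cluster 47 of 49 members were lower, with a median of -1.27. In the HIST2 to HIST4 groups 11 of 20 were lower, with a median of -0.69. These groups within the list were formed after the values were seen. HIST1H1T, named for its expression in testis, was at 5.35 and 5.21 CPM at 0 h, 4.45 and 4.21 CPM at 24 h and 0.849 and 1.11 CPM at 48 h, and most of its fall lay in the second day. HIST1H1T fell by 2.16 on the log2 scale (standard error 0.161, edgeR adjusted p = 8.1e-16). SLBP, whose product binds the histone stem-loop, was at 99.2 and 97.6 CPM at 24 h and 106 and 109 CPM at 48 h, a small rise that lost its call under 1 of 16 alternatives. Histone genes are nearly identical copies of each other, so that the share of reads given to each is uncertain. The sources used here do not give whether poly(A) RNA was selected, and reads from tailed and untailed transcripts cannot be told apart.

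Genes of DNA replication fell on the second day by less, and from a first day on which their changes had been mixed. Of 40 members of the licensing and fork list, 31 were lower and 4 higher at 48 h than at 24 h, where 18 had been lower and 12 higher at 24 h than at 0 h. At 10 to 100 CPM 18 of 23 were lower on the second day, against 43.1% of all genes there. At 100 CPM or more 13 of 17 were lower, against 50.6%. The median log2 fold change of the members was -0.29 on the second day and -0.061 on the first. The second-day change was below the first-day change for 25 of the 40 and above it for 4, against 18.3% and 15.4% of all genes. POLA1, the catalytic subunit of the polymerase that primes new strands, was at 143 and 146 CPM at 0 h, 140.3 and 141 CPM at 24 h and 101 and 103 CPM at 48 h, and both 48 h libraries were below all 4 earlier libraries. POLA1 fell by 0.47 on the log2 scale (standard error 0.0315, edgeR adjusted p = 3.2e-17). ORC6, a subunit of the origin recognition complex, was at 78.9 and 80.0 CPM at 0 h, 95.2 and 95.2 CPM at 24 h and 63.6 and 64.6 CPM at 48 h and crossed its starting level. ORC6 fell by 0.57 on the log2 scale (standard error 0.0349, edgeR adjusted p = 9.6e-19). POLE2, a subunit of the leading-strand polymerase, was at 37.1 and 37.3 CPM at 0 h, 23.8 and 24.9 CPM at 24 h and 15.6 and 17.2 CPM at 48 h. POLE2 fell by 0.58 on the log2 scale (standard error 0.0578, edgeR adjusted p = 7.2e-12). The members CDT1 and DUT went the other way. CDT1, the licensing factor that loads the MCM helicase, rose on both days and was at 47.7 and 46.7 CPM at 0 h, 71.7 and 76.3 CPM at 24 h and 85.4 and 86.9 CPM at 48 h. CDT1 rose by 0.22 on the log2 scale (standard error 0.0364, edgeR adjusted p = 1.5e-06). DUT, the dUTPase, was at 147 and 140.0 CPM at 0 h, 123 and 128 CPM at 24 h and 145 and 140.3 CPM at 48 h. DUT rose by 0.18 on the log2 scale (standard error 0.0323, edgeR adjusted p = 4.1e-06). In the S-phase list of Seurat, 35 of 43 genes were lower and 2 higher, with a median of -0.25 (first day, 0.006). RRM2, the small subunit of ribonucleotide reductase, was at 387 and 397 CPM at 0 h, 474 and 458 CPM at 24 h and 343 and 338 CPM at 48 h. RRM2 fell by 0.45 on the log2 scale (standard error 0.0279, edgeR adjusted p = 1.4e-18). E2F letters (TTTCGCGC, TTTGGCGC or TTTCCCGC on either strand) were present in 17 of 34 replication windows (50%), against 3.3% of all windows and 5.38% of those of genes tested.

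Genes of the Fanconi anaemia pathway and of homologous recombination repair crosslinks and double-strand breaks. The median of this list turned from a rise to a fall. Of 22 members 13 were higher and 1 lower at 24 h than at 0 h, whereas 17 were lower at 48 h than at 24 h and the other 5 did not pass the test. The medians were 0.15 and -0.21, and the second-day change was below the first for 18 members. At 10 to 100 CPM 13 of 17 were lower on the second day, against 43.1% of all genes there. At 100 CPM or more 4 of 4 were lower, against 50.6%. FANCD2, the protein that is ubiquitinated at stalled forks, was at 67.0 and 67.5 CPM at 0 h, 63.4 and 62.6 CPM at 24 h and 40.3 and 39.2 CPM at 48 h. FANCD2 fell by 0.66 on the log2 scale (standard error 0.0398, edgeR adjusted p = 5.1e-19). Its partner FANCI was at 248 and 250.5 CPM at 0 h, 295 and 302 CPM at 24 h and 218 and 219 CPM at 48 h. FANCI fell by 0.45 on the log2 scale (standard error 0.0283, edgeR adjusted p = 2.6e-18). FANCG, of the core complex, was at 43.3 and 42.5 CPM at 0 h, 39.9 and 40.6 CPM at 24 h and 28.0 and 30.7 CPM at 48 h. FANCG fell by 0.46 on the log2 scale (standard error 0.0479, edgeR adjusted p = 2.2e-11). FANCD2 and FANCG, unlike FANCI, had not risen on the first day. BRCA1, named after its value was seen, was at 157 and 162 CPM at 0 h, 221 and 222 CPM at 24 h and 178 and 181 CPM at 48 h: the 48 h libraries lay between the other 2 times.

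**Figure D3:**
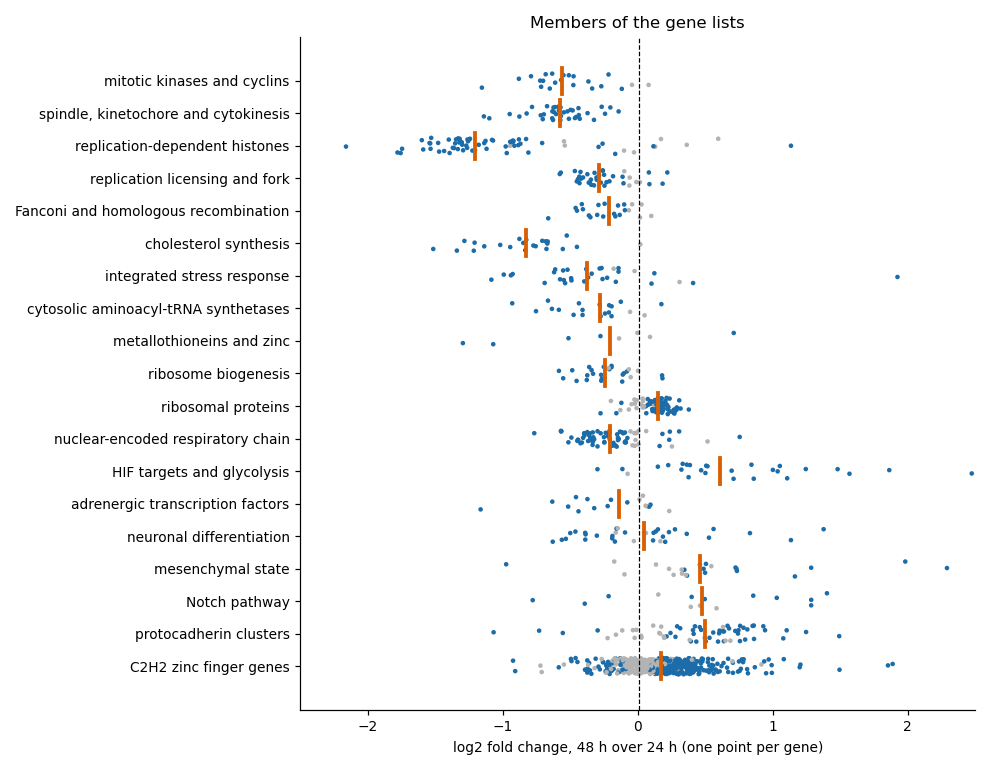
Each point is a member of a gene list and its x value is the log2 fold change of 48 h over 24 h; blue points passed the test, orange bars are list medians and the dashed line is the median of all genes. CA9, NTRK2 and ZNF860 lie beyond the right edge. Points of the cholesterol list lie to the left of the line except SC5D, and 25 of 28 HIF targets lie to its right as called genes.

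Cholesterol synthesis turned down after 24 h. Its enzymes turn acetyl-CoA into sterols by way of mevalonate, under the transcription factor SREBP2, which cells activate when sterols run low. Of 23 members tested, 22 were lower at 48 h than at 24 h, and 21 of the 22 fell by more than 0.5 on the log2 scale, where 6.54% of all genes did. On the first day 11 had risen and 4 had fallen. The median log2 fold change of the members was -0.83 on the second day and 0.13 on the first, and the second-day change was below the first for 22 members. The summed level was 2824 to 2851 CPM at 24 h and 1523 to 1537 CPM at 48 h, against 2523 to 2597 CPM at 0 h. HMGCS1, which makes HMG-CoA, was at 276 and 267 CPM at 0 h, 390.5 and 381 CPM at 24 h and 134 and 136 CPM at 48 h. HMGCS1 fell by 1.52 on the log2 scale (standard error 0.0296, edgeR adjusted p = 1.9e-37). Both 48 h libraries were below both 0 h libraries, which in turn were below both 24 h libraries. FDPS, the farnesyl diphosphate synthase (chromosome 1, 155278539 to 155290457), was at 203 and 208 CPM at 0 h, 214 and 215 CPM at 24 h and 87.5 and 89.0 CPM at 48 h. FDPS fell by 1.28 on the log2 scale (standard error 0.0311, edgeR adjusted p = 6.4e-34). For FDPS the 24 h level lay within 10% of the 0 h level, and nearly all of the change came after 24 h. SREBF2, which encodes SREBP2 itself, was at 169 and 171 CPM at 0 h, 229 and 236 CPM at 24 h and 162 and 161 CPM at 48 h, so that it returned to just below its 0 h level. SREBF2 fell by 0.53 on the log2 scale (standard error 0.0295, edgeR adjusted p = 4.4e-20). INSIG1, an SREBP2 target that retains the SREBP complex in the endoplasmic reticulum, was at 46.3 and 43.9 CPM at 24 h and 28.8 and 27.9 CPM at 48 h (log2 fold change -0.67). The exception was SC5D, a late desaturase, which was at 93.0 and 91.8 CPM at 24 h and 93.6 and 93.7 CPM at 48 h (log2 fold change 0.019, edgeR adjusted p = 0.69). SREBF2, INSIG1 and SC5D were named after their values were seen. ACAT2, the cytosolic thiolase that condenses acetyl-CoA ahead of this pathway, is outside the list and was among the 12 largest falls of called genes at 5 CPM or more: it was at 147 and 151 CPM at 0 h, 212 and 202 CPM at 24 h and 57.8 and 58.1 CPM at 48 h. ACAT2 fell by 1.84 on the log2 scale (standard error 0.0336, edgeR adjusted p = 1.5e-38). PCYT2, an enzyme of phosphatidylethanolamine synthesis, was at 18.7 and 17.6 CPM at 0 h, 16.4 and 17.5 CPM at 24 h and 7.55 and 7.63 CPM at 48 h. PCYT2 fell by 1.16 on the log2 scale (standard error 0.0727, edgeR adjusted p = 2.6e-18).

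Sterol response letters (TCACNCCAC on either strand) were found in 1 of the 18 windows of this list (5.56%) and in 1.39% of all windows (1.35% of those of genes tested), and CCAAT in 16 of 18 (88.9%) against 39.7% and 43.3%. The window with the sterol letters, in capitals, is that of SREBF2.
SREBF2 (chr22:42228926-42229034, plus strand, bases -183 to -75 from the start): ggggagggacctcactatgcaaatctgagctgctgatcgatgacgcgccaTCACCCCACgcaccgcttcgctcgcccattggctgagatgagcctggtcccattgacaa
No match in the other windows of the list says only that these letters were not in that stretch.

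The integrated stress response was high at 24 h and receded in part by 48 h. In this pathway kinases that sense amino acid shortage, unfolded protein or other stress phosphorylate eIF2 and raise translation of ATF4, which activates genes of amino acid supply and of cell death. On the first day 31 of 32 members rose, whereas from 24 h to 48 h 25 fell and 4 rose. At 10 to 100 CPM 11 of 14 fell on the second day, against 43.1% of all genes there. At 100 CPM or more 10 of 13 fell, against 50.6%. The median log2 fold change of the members was -0.37 on the second day and 1.85 on the first, and for 31 members the second-day change was below the first. With the 3 members that had at most 3 counts over both 0 h libraries set to their lower bound, the first-day median was the same. TRIB3, a pseudokinase induced by ATF4 and CHOP, was at 7.04 and 7.06 CPM at 0 h, 95.4 and 93.0 CPM at 24 h and 46.4 and 48.3 CPM at 48 h. TRIB3 fell by 0.99 on the log2 scale (standard error 0.0386, edgeR adjusted p = 4.7e-26). The 48 h libraries lay below the 24 h libraries and well above the 0 h libraries. GDF15, a secreted stress cytokine, had 1 count in each 0 h library and was at 6.36 and 5.98 CPM at 24 h and 2.98 and 3.50 CPM at 48 h. GDF15 fell by 0.94 on the log2 scale (standard error 0.12, edgeR adjusted p = 4.5e-09). FGF21, a stress hormone, had no count at 0 h and was at 1.1 and 1.11 CPM at 24 h and 0.587 and 0.445 CPM at 48 h. FGF21 fell by 1.08 on the log2 scale (standard error 0.299, edgeR adjusted p = 0.0019). ASNS, the asparagine synthetase, was at 127 and 128 CPM at 0 h, 554 and 561 CPM at 24 h and 427 and 437 CPM at 48 h (log2 fold change -0.37), and DDIT3, which encodes CHOP, was at 14.5 and 15.8 CPM at 0 h, 71.2 and 70.2 CPM at 24 h and 47.3 and 49.2 CPM at 48 h (log2 fold change -0.55). Both were named after their values were seen. ATF4 RNA itself did not recede and was at 520.0 and 544 CPM at 0 h, 756 and 762 CPM at 24 h and 811 and 841 CPM at 48 h. ATF4 rose by 0.12 on the log2 scale (standard error 0.0275, edgeR adjusted p = 0.00017). NDRG1, which hypoxia induces as well, rose on both days and was at 2.18 and 3.10 CPM at 0 h, 44.2 and 52.5 CPM at 24 h and 176 and 192 CPM at 48 h, and VLDLR, a lipoprotein receptor, was at 8.06 and 8.98 CPM at 0 h, 32.6 and 34.2 CPM at 24 h and 43.5 and 45.4 CPM at 48 h. NDRG1 rose by 1.92 on the log2 scale (standard error 0.0464, edgeR adjusted p = 5.8e-34). VLDLR rose by 0.41 on the log2 scale (standard error 0.0477, edgeR adjusted p = 4.6e-10).

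Composite letters for C/EBP and ATF factors (TGATGCAA or TGATGAAA on either strand) were found in 5 of 26 windows of this list (19.2%) and in 2.44% of all windows and 1.55% of those of genes tested. The 3 called members with the largest fall among those holding them are shown, with the letters in capitals.
FGF21 (chr19:49258677-49258784, plus strand, bases -104 to 4 from the start): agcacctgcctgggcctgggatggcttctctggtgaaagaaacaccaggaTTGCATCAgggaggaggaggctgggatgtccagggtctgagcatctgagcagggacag
CHAC1 (chr15:41245419-41245517, plus strand, bases -250 to -152 from the start): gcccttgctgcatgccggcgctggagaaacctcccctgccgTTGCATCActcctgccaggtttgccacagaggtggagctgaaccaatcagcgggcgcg
ASNS (chr7:97501731-97501838, minus strand, bases -118 to -11 from the start): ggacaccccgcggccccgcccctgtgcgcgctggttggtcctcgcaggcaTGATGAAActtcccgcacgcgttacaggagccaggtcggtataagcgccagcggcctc
CHAC1, which degrades glutathione, was at 5.66 and 5.54 CPM at 0 h, 65.8 and 67.3 CPM at 24 h and 49.6 and 51.7 CPM at 48 h (log2 fold change -0.40).

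Cytosolic aminoacyl-tRNA synthetases charge tRNAs, and several are ATF4 targets. Of 20, 17 were lower and 1 higher at 48 h than at 24 h, against 28.0% and 25.9% of all genes. At 100 CPM or more 15 of 18 were lower, against 50.6% of all genes there. On the first day 12 had risen and 6 had fallen, and the second-day change was below the first for 14. MARS, the methionyl enzyme, was at 349 and 368 CPM at 0 h, 460.1 and 473 CPM at 24 h and 272 and 282 CPM at 48 h. MARS fell by 0.75 on the log2 scale (standard error 0.0293, edgeR adjusted p = 4.9e-26). VARS, the valyl enzyme, fell on both days and was at 279 and 283 CPM at 0 h, 182 and 182 CPM at 24 h and 93.9 and 97.6 CPM at 48 h. VARS fell by 0.93 on the log2 scale (standard error 0.0312, edgeR adjusted p = 1.8e-28). DARS, the aspartyl enzyme, was at 106 and 109 CPM at 0 h, 118 and 116 CPM at 24 h and 132 and 132 CPM at 48 h. DARS rose by 0.17 on the log2 scale (standard error 0.0317, edgeR adjusted p = 6.9e-06). Chaperones of the endoplasmic reticulum did not move as a block, with 11 of 20 lower and 6 higher. At 100 CPM or more 6 of 11 were lower, near the 50.6% of all genes there. At 10 to 100 CPM 5 of 8 were lower, against 43.1%. HYOU1 was at 361 and 374 CPM at 0 h, 399.7 and 396 CPM at 24 h and 229 and 225 CPM at 48 h, and DNAJB9, an IRE1 target, was at 19.8 and 19.2 CPM at 0 h, 29.1 and 27.9 CPM at 24 h and 44.4 and 42.3 CPM at 48 h. HYOU1 fell by 0.81 on the log2 scale (standard error 0.0283, edgeR adjusted p = 7.5e-28). DNAJB9 rose by 0.61 on the log2 scale (standard error 0.0479, edgeR adjusted p = 5.5e-15).

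Metallothioneins, small proteins that bind zinc and copper and whose genes answer to free metal, had appeared on the first day and partly declined on the second. The list holds them and the zinc exporter SLC30A1, and all 8 members that passed the filter were higher at 24 h than at 0 h. From 24 h to 48 h 4 of the 7 metallothioneins fell and the other 3 did not pass the test. MT1G had 0 and 1 counts in the 0 h libraries and was at 30.6 and 38.9 CPM at 24 h and 24.9 and 23.7 CPM at 48 h. MT1G fell by 0.51 on the log2 scale (standard error 0.0645, edgeR adjusted p = 3.2e-09). MT1E was at 0.166 and 0.0563 CPM at 0 h, 6.18 and 7.43 CPM at 24 h and 2.55 and 3.04 CPM at 48 h, and MT2A was at 4.61 and 4.84 CPM at 0 h, 61.9 and 78.1 CPM at 24 h and 59.1 and 56.3 CPM at 48 h (log2 fold change -0.28). MT1E fell by 1.30 on the log2 scale (standard error 0.127, edgeR adjusted p = 4.1e-12). The 2 times did not overlap for MT1G and MT1E. MT1X, MT1H and MT1F had log2 fold changes of -0.14, -0.003 and 0.091, which did not pass the test. SLC30A1 went on rising and was at 38.5 and 34.6 CPM at 0 h, 154 and 148 CPM at 24 h and 249 and 246 CPM at 48 h. SLC30A1 rose by 0.71 on the log2 scale (standard error 0.0319, edgeR adjusted p = 1.3e-23). Metallothionein genes share sequence, and the split of reads among them is uncertain.

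Targets of HIF rose further on the second day. HIF activates genes of glycolysis, oxygen supply and pH control when its prolyl hydroxylases are inactive, as in low oxygen. All 28 members had been higher at 24 h than at 0 h, and 25 of 28 were higher again at 48 h than at 24 h with 2 lower, against 25.9% of all genes higher. The medians were 1.55 and 0.61, and for 22 members the second-day rise was below that of the first. CA9, the carbonic anhydrase used as a marker of hypoxia (chromosome 9, 35673925 to 35681156), was at 0.0828 and 0.253 CPM at 0 h, 0.611 and 0.575 CPM at 24 h and 5.2 and 5.06 CPM at 48 h. CA9 rose by 3.11 on the log2 scale (standard error 0.187, edgeR adjusted p = 5.1e-19). CA12, a related enzyme, was at 0.386 and 0.338 CPM at 0 h, 0.717 and 1.34 CPM at 24 h and 5.93 and 5.49 CPM at 48 h. CA12 rose by 2.47 on the log2 scale (standard error 0.17, edgeR adjusted p = 5.4e-17). For both enzymes the 48 h libraries stood well apart from the 4 earlier libraries. ANGPTL4, a secreted inhibitor of lipoprotein lipase, was at 0.0828 and 0.0844 CPM at 0 h, 2.59 and 1.89 CPM at 24 h and 7.86 and 8.54 CPM at 48 h. ANGPTL4 rose by 1.86 on the log2 scale (standard error 0.125, edgeR adjusted p = 2.5e-17). VEGFA, the vascular growth factor, was at 73.7 and 71.1 CPM at 0 h, 420.2 and 444 CPM at 24 h and 779 and 771 CPM at 48 h (log2 fold change 0.84), and P4HA1, a collagen prolyl hydroxylase, was at 42.0 and 42.9 CPM at 0 h, 208 and 222 CPM at 24 h and 456 and 469 CPM at 48 h (log2 fold change 1.11), both named after their values were seen. HIF1A-AS2, an antisense RNA of the HIF1A locus, had 0 and 1 counts at 0 h and was at 1.35 and 1.70 CPM at 24 h and 13.7 and 12.5 CPM at 48 h. HIF1A-AS2 rose by 3.10 on the log2 scale (standard error 0.121, edgeR adjusted p = 5.7e-26). It overlaps HIF1A, and reads of the 2 genes can be told apart only if strand was used in counting, which the sources used here do not give. TPI1, the triose phosphate isomerase, was at 912 and 924 CPM at 0 h, 1156 and 1174 CPM at 24 h and 933 and 962 CPM at 48 h, and LDHA, the lactate dehydrogenase, stood at -0.075 on the log2 scale (edgeR adjusted p = 0.14). TPI1 fell by 0.30 on the log2 scale (standard error 0.0264, edgeR adjusted p = 1.9e-13). KDM3A, a histone H3 lysine 9 demethylase that HIF induces, was at 27.3 and 26.3 CPM at 0 h, 110.1 and 121 CPM at 24 h and 236 and 238 CPM at 48 h. KDM3A rose by 1.04 on the log2 scale (standard error 0.0335, edgeR adjusted p = 4.2e-29). HMOX1, the heme oxygenase, was at 1.77 and 1.27 CPM at 0 h, 5.96 and 5.89 CPM at 24 h and 25.6 and 27.1 CPM at 48 h and led the list of NRF2 targets, in which 9 of 22 members were higher and 6 lower. HMOX1 rose by 2.15 on the log2 scale (standard error 0.0757, edgeR adjusted p = 1.1e-27).

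The core of the hypoxia response element, ACGTG on either strand, was looked for after the values had been seen. It was present in 18 of 26 windows of the HIF list (69.2%) and in 24.9% of all windows and 31.9% of those of genes tested. The 3 members with the largest rise among those holding it are shown, with the core in capitals. Where the core overlaps its own reverse complement, the capitals run over 6 bases.
CA9 (chr9:35673857-35673961, plus strand, bases -68 to 37 from the start): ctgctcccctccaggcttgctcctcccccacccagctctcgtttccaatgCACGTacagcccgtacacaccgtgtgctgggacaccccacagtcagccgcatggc
ANGPTL4 (chr19:8428789-8428859, plus strand, bases -250 to -180 from the start): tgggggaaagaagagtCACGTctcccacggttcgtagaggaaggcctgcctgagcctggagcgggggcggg
ANKRD37 (chr4:186317802-186317906, plus strand, bases -193 to -89 from the start): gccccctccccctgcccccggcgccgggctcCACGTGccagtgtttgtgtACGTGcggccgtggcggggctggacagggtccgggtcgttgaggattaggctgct
ANKRD37, named after its value was seen, was at 1.93 and 1.63 CPM at 0 h, 5.33 and 5.81 CPM at 24 h and 16.6 and 16.4 CPM at 48 h (log2 fold change 1.57).

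**Figure D4:**
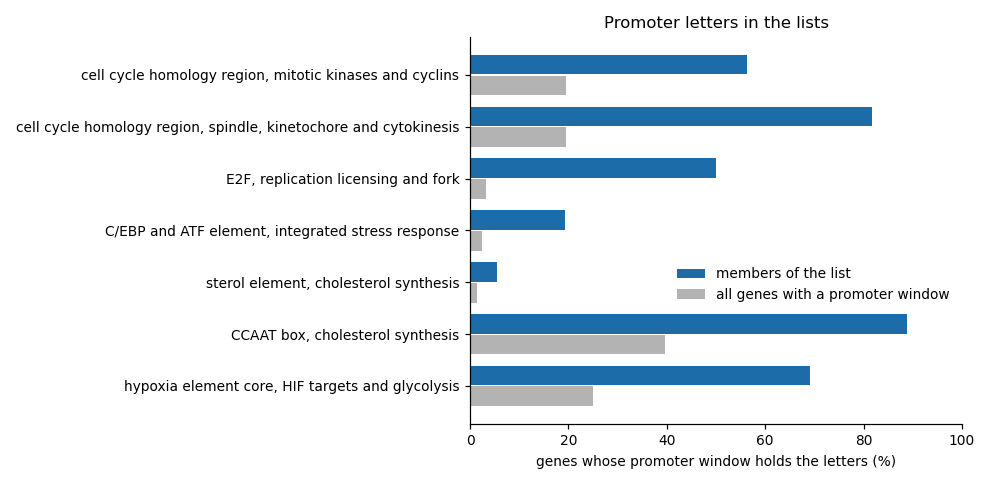
Share of genes (x axis, in percent) whose RefSeq promoter window holds the named letters on either strand, for members of a gene list (blue) and for all genes with a window (grey). Among the pairs shown are the cell cycle homology region in spindle genes (81.8% against 19.5%), E2F letters in replication genes (50% against 3.3%) and CCAAT in cholesterol genes (88.9% against 39.7%).

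Genes of the ribosome split in 2 directions. Ribosomal proteins rose slightly, with 62 of 82 higher and 3 lower and a median log2 fold change of 0.15, and none of them moved by more than 0.5. At 100 CPM or more 61 of 74 were higher and 2 lower, against 30.9% and 50.6% of all genes there. RPL39 was at 406 and 402 CPM at 0 h, 491 and 482 CPM at 24 h and 634 and 631 CPM at 48 h, and RPS3A was at 1731 and 1709 CPM at 0 h, 2114 and 2021 CPM at 24 h and 2524 and 2628 CPM at 48 h. RPL39 rose by 0.38 on the log2 scale (standard error 0.0267, edgeR adjusted p = 1.4e-16). RPS3A rose by 0.32 on the log2 scale (standard error 0.0272, edgeR adjusted p = 7.7e-14). The factors that assemble ribosomes fell instead, with 21 of 27 lower and 2 higher and a median of -0.24. At 100 CPM or more 13 of 18 were lower, against 50.6% of all genes there. At 10 to 100 CPM 8 of 8 were lower, against 43.1%. UTP20, of the small-subunit processome, was at 289 and 307 CPM at 0 h, 180.2 and 180.3 CPM at 24 h and 119.9 and 126 CPM at 48 h, and NOP2, a nucleolar RNA methyltransferase, was at 74.9 and 80.1 CPM at 0 h, 55.2 and 56.0 CPM at 24 h and 39.8 and 39.6 CPM at 48 h. UTP20 fell by 0.55 on the log2 scale (standard error 0.0323, edgeR adjusted p = 2.1e-19). NOP2 fell by 0.49 on the log2 scale (standard error 0.0415, edgeR adjusted p = 6.9e-14). RRN3, the factor that recruits RNA polymerase I, was at 125 and 121 CPM at 0 h, 147 and 149 CPM at 24 h and 165 and 170.1 CPM at 48 h and rose slightly. RRN3 rose by 0.18 on the log2 scale (standard error 0.0307, edgeR adjusted p = 1.7e-06). Ribosomal protein genes have many processed pseudogenes, which can take some of their reads. Nuclear-encoded subunits of the respiratory chain fell on both days, 67 of 77 on the first and 59 on the second, with 6 higher on the second. Their median was -0.29 on the first day and -0.21 on the second. On the second day 32 of 38 at 10 to 100 CPM were lower, against 43.1% of all genes there. At 100 CPM or more 25 of 34 were lower, against 50.6%. NDUFS6, of complex I, was at 79.2 and 86.0 CPM at 0 h, 49.8 and 50.9 CPM at 24 h and 31.3 and 27.6 CPM at 48 h, and UQCRQ, of complex III, was at 183 and 192 CPM at 0 h, 137 and 138 CPM at 24 h and 94.7 and 89.8 CPM at 48 h. NDUFS6 fell by 0.77 on the log2 scale (standard error 0.0484, edgeR adjusted p = 3.1e-18). UQCRQ fell by 0.57 on the log2 scale (standard error 0.0333, edgeR adjusted p = 2e-19). Mitochondrially encoded genes were not analysed here.

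Transcription factors of the adrenergic state were more often lower than higher at 48 h. Of 18, 10 were lower and 2 higher at 48 h than at 24 h, against 28.0% and 25.9% of all genes. By level, 2 of 6 members at 10 to 100 CPM were lower, against 43.1% of all genes there, and 7 of 9 at 100 CPM or more, against 50.6%. The 2 rises were small, with log2 fold changes of 0.094 for GATA2 and 0.084 for SOX11. Their calls were lost under 2 and 5 of 16 alternatives. Of the lower members 3 fell by more than 0.5 on the log2 scale. On the first day 13 of the 18 had been lower at 24 h than at 0 h. MYCN, the amplified oncogene of many neuroblastomas, was at 3004 and 3027 CPM at 0 h, 1669 and 1717 CPM at 24 h and 1467 and 1433 CPM at 48 h, with a first-day log2 fold change of -0.83. MYCN fell by 0.22 on the log2 scale (standard error 0.0263, edgeR adjusted p = 6e-10). Both 48 h libraries of MYCN were below both 24 h libraries. HAND2, the sympathetic bHLH factor, was at 366 and 367 CPM at 24 h and 326 and 312 CPM at 48 h (log2 fold change -0.20). Catecholamine genes went both ways, with 6 of 17 higher and 9 lower. DBH, which makes noradrenaline, was at 179.6 and 189.6 CPM at 0 h, 241 and 252 CPM at 24 h and 167 and 164 CPM at 48 h, and TH, which makes its precursor, was at 31.6 and 33.1 CPM at 0 h, 49.7 and 49.9 CPM at 24 h and 35.2 and 36.4 CPM at 48 h. DBH fell by 0.58 on the log2 scale (standard error 0.031, edgeR adjusted p = 9.7e-21). TH fell by 0.48 on the log2 scale (standard error 0.0438, edgeR adjusted p = 5.4e-13). Both rose on the first day, and DBH ended below and TH above the 0 h libraries. SCG2, a granin of secretory vesicles, rose on both days and was at 279 and 294 CPM at 0 h, 571 and 574 CPM at 24 h and 1062 and 1082 CPM at 48 h. SCG2 rose by 0.91 on the log2 scale (standard error 0.0275, edgeR adjusted p = 3.9e-30).

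Neuronal differentiation genes did not move as a block either, with 15 of 35 higher and 14 lower. NTRK3, the receptor of neurotrophin 3, was at 0.773 and 0.985 CPM at 0 h, 1.26 and 1.02 CPM at 24 h and 3.20 and 2.71 CPM at 48 h. NTRK3 rose by 1.38 on the log2 scale (standard error 0.182, edgeR adjusted p = 1.1e-08). NTRK2 was near the floor, with 0 and 5 counts at 24 h and 27 and 24 at 48 h, and its call was lost under 1 of 16 alternatives. KIF1A, an axonal motor, was at 338 and 341 CPM at 0 h, 518 and 545 CPM at 24 h and 347 and 339.9 CPM at 48 h and gave back its first-day rise, and SNAP25, of the synaptic vesicle fusion complex, was at 43.0 and 43.1 CPM at 0 h, 33.3 and 29.5 CPM at 24 h and 21.2 and 22.2 CPM at 48 h. KIF1A fell by 0.63 on the log2 scale (standard error 0.0282, edgeR adjusted p = 1.2e-23). SNAP25 fell by 0.53 on the log2 scale (standard error 0.0541, edgeR adjusted p = 1.1e-11).

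Of the 23 mesenchymal-state genes that passed the filter (29 are listed), 13 were higher and 1 lower at 48 h than at 24 h, with a median of 0.46. Of all genes 25.9% were higher and 28.0% lower. The median of the 8 members under 1 CPM was 0.451, against 0.279 for all genes at that level. That of the 9 members at 1 to 10 CPM was 0.345, against 0.0759. That of the 5 members at 10 to 100 CPM was 0.499, against -0.0664. NOTCH2 was at 0.552 and 0.338 CPM at 0 h, 0.59 and 0.511 CPM at 24 h and 1.25 and 1.46 CPM at 48 h, COL5A1, a fibrillar collagen, was at 10.9 and 10.2 CPM at 0 h, 13.9 and 12.8 CPM at 24 h and 29.5 and 30.3 CPM at 48 h (log2 fold change 1.16), and VIM, the intermediate filament vimentin, was at 170.4 and 176 CPM at 0 h, 319.9 and 333 CPM at 24 h and 461 and 466 CPM at 48 h (log2 fold change 0.51), the latter 2 named after their values were seen. NOTCH2 rose by 1.28 on the log2 scale (standard error 0.268, edgeR adjusted p = 6.5e-05). FN1, fibronectin, was at 27.9 and 32.6 CPM at 0 h, 25.1 and 23.6 CPM at 24 h and 40.8 and 40.2 CPM at 48 h (log2 fold change 0.73). AEBP1 fell and was at 8.97 and 8.78 CPM at 0 h, 5.06 and 4.68 CPM at 24 h and 2.27 and 2.73 CPM at 48 h. AEBP1 fell by 0.98 on the log2 scale (standard error 0.125, edgeR adjusted p = 5.1e-09). The regulators PRRX1, RUNX2, FOSL1, MEOX1 and MEOX2 were below the filter. Beside these, the summed level of the Schwann markers given above was higher at 48 h than at 24 h, while no fibroblast marker of the 5 tested passed edgeR's adjusted threshold (2 had an unadjusted p under 0.05), and their part in the result was not tested.

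Members of 4 lists of signalling readouts were more often higher than lower on the second day. Of all genes 25.9% were higher and 28.0% lower, and at 10 to 100 CPM 27.7% and 43.1%. At that level 1 of 3 Notch members and 4 of 10 immediate early genes were higher, with 2 lower in each list. Feedback genes of the MAPK pathway had 5 of 8 higher and 2 lower there, and TGF-beta and BMP readouts 5 of 6 higher and 1 lower. Many Notch and immediate early members were under 10 CPM. In the Notch list, 7 of 14 tested members were higher and 3 lower. The Notch target HEY1 was at 22.8 and 23.8 CPM at 0 h, 36.4 and 36.1 CPM at 24 h and 95.3 and 96.2 CPM at 48 h, and HES1, the classical target that represses proneural genes (chromosome 3, 193853937 to 193856521), was at 2.79 and 2.70 CPM at 0 h, 2.47 and 2.75 CPM at 24 h and 6.59 and 6.07 CPM at 48 h. HEY1 rose by 1.40 on the log2 scale (standard error 0.0396, edgeR adjusted p = 2.4e-31). HES1 rose by 1.29 on the log2 scale (standard error 0.12, edgeR adjusted p = 1.1e-12). HES1 had a first-day log2 fold change of -0.075 that did not pass the test. The ligand DLL3 was at 36.2 and 34.5 CPM at 0 h, 33.1 and 36.1 CPM at 24 h and 27 and 25.6 CPM at 48 h and fell. DLL3 fell by 0.39 on the log2 scale (standard error 0.051, edgeR adjusted p = 7e-09). Immediate early genes, which growth signals induce rapidly, had 12 of 20 higher and 2 lower. KLF2 was at 0.221 and 0.31 CPM at 0 h, 0.59 and 0.511 CPM at 24 h and 1.82 and 1.98 CPM at 48 h, and NR4A1 fell and was at 16.9 and 18.7 CPM at 0 h, 24.6 and 24.9 CPM at 24 h and 21.3 and 20.9 CPM at 48 h. KLF2 rose by 1.78 on the log2 scale (standard error 0.243, edgeR adjusted p = 2.4e-08). NR4A1 fell by 0.23 on the log2 scale (standard error 0.056, edgeR adjusted p = 0.00054). Feedback genes of the MAPK pathway had 9 of 14 higher and 2 lower. DUSP5, a nuclear ERK phosphatase, was at 1.21 and 1.15 CPM at 0 h, 3.14 and 3.26 CPM at 24 h and 7.41 and 7.65 CPM at 48 h, and SPRED1, an inhibitor of RAS signalling, was at 56.8 and 54.5 CPM at 0 h, 58.5 and 55.6 CPM at 24 h and 91.6 and 91.2 CPM at 48 h. DUSP5 rose by 1.23 on the log2 scale (standard error 0.111, edgeR adjusted p = 2.9e-13). SPRED1 rose by 0.68 on the log2 scale (standard error 0.0371, edgeR adjusted p = 1.9e-20). ETV1 and ETV4, which ERK induces, fell, with log2 fold changes of -0.41 and -0.36. Readouts of TGF-beta and BMP signalling had 10 of 14 higher and 3 lower. SMAD7, the inhibitory SMAD, was at 10.3 and 9.79 CPM at 0 h, 17 and 17.4 CPM at 24 h and 27.7 and 28.0 CPM at 48 h, and BMP7, a ligand, was at 68.9 and 72.7 CPM at 0 h, 49.2 and 54.1 CPM at 24 h and 22.5 and 22.4 CPM at 48 h and fell. SMAD7 rose by 0.69 on the log2 scale (standard error 0.0565, edgeR adjusted p = 1.6e-14). BMP7 fell by 1.20 on the log2 scale (standard error 0.0483, edgeR adjusted p = 2e-25).

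Protocadherins, adhesion proteins of which neurons choose a few from a set of gene clusters, rose after 24 h. Of 63 tested, 40 were higher and 4 lower, with a median log2 fold change of 0.49 and a first-day median of -0.025. On the first day 5 had been higher and 18 lower, and the second-day change was above the first for 30. The rise was found in each cluster: 10 of 15 alpha genes, 13 of 16 beta genes and 12 of 22 gamma genes were higher, and a single clustered gene, PCDHGC3, was lower. Outside the clusters 5 of 10 were higher and 3 lower. The groups by cluster were formed after the values were seen. PCDHB12 was at 1.27 and 1.41 CPM at 0 h, 0.927 and 1.21 CPM at 24 h and 2.98 and 3.06 CPM at 48 h, and PCDHA9 was at 1.35 and 1.35 CPM at 0 h, 1.29 and 1.15 CPM at 24 h and 2.66 and 3.18 CPM at 48 h. PCDHB12 rose by 1.49 on the log2 scale (standard error 0.18, edgeR adjusted p = 1.2e-09). PCDHA9 rose by 1.25 on the log2 scale (standard error 0.177, edgeR adjusted p = 5.5e-08). PCDHGC3 fell on both days and was at 51.7 and 53.6 CPM at 0 h, 29.3 and 30.9 CPM at 24 h and 20.7 and 20.3 CPM at 48 h. PCDHGC3 fell by 0.56 on the log2 scale (standard error 0.0516, edgeR adjusted p = 8.5e-13). Most members were between 1 and 10 CPM, where 27 of 37 were higher, against 27.9% of all genes at that level. With DESeq2 26 members were higher. Genes of the alpha and of the gamma cluster share their last exons, so that part of their counts cannot be given to one gene. Zinc finger genes of the C2H2 class rose in part, with 252 of 489 higher and 47 lower and a median of 0.17. At 10 to 100 CPM 182 of 318 were higher and 34 lower, against 27.7% and 43.1% of all genes there. Their first-day median was 0.23.

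Genes of the cell cycle brake and of cell death showed no common direction. CDKN1A, which encodes the CDK inhibitor p21, was at 8.25 and 7.85 CPM at 0 h, 42.9 and 46.9 CPM at 24 h and 44.1 and 44.9 CPM at 48 h. The 2 treated times overlapped, and CDKN1A stood at -0.014 on the log2 scale between them (95% interval -0.11 to 0.078, edgeR adjusted p = 0.83), whose sign depended on the scaling. CDKN1C, a related inhibitor, was at 0.221 and 0.113 CPM at 0 h, 0.569 and 0.66 CPM at 24 h and 1.3 and 1.56 CPM at 48 h. CDKN1C rose by 1.20 on the log2 scale (standard error 0.261, edgeR adjusted p = 0.00011). CCND3, a D-type cyclin, was at 31.8 and 30.0 CPM at 0 h, 28.0 and 29.2 CPM at 24 h and 19.0 and 18.9 CPM at 48 h. CCND3 fell by 0.59 on the log2 scale (standard error 0.054, edgeR adjusted p = 4.4e-13). Of 25 p53 targets, 7 were higher and 7 lower, near the 25.9% and 28.0% of all genes. TNFRSF10B, the death receptor DR5, which CHOP also induces, was at 5.02 and 5.88 CPM at 0 h, 34.6 and 33.8 CPM at 24 h and 50.9 and 52.7 CPM at 48 h, and SPATA18, a mitochondrial quality gene, was at 6.54 and 6.53 CPM at 0 h, 1.62 and 1.51 CPM at 24 h and 0.54 and 0.466 CPM at 48 h. TNFRSF10B rose by 0.60 on the log2 scale (standard error 0.0463, edgeR adjusted p = 3.2e-15). SPATA18 fell by 1.62 on the log2 scale (standard error 0.227, edgeR adjusted p = 4.1e-08). In the BCL2 family, 6 of 14 were higher and 8 lower. At 10 to 100 CPM 4 of 9 were higher and 5 lower, against 27.7% and 43.1% of all genes there. The killer protein gene BMF was at 2.35 and 2.81 CPM at 0 h, 3.90 and 4.17 CPM at 24 h and 10.8 and 10.0 CPM at 48 h, the survival gene BCL2 was at 44.4 and 44.3 CPM at 0 h, 54.5 and 52.6 CPM at 24 h and 75.4 and 77.1 CPM at 48 h, and the effectors BAX and BAK1 fell, with log2 fold changes of -0.37 and -0.31. BMF rose by 1.37 on the log2 scale (standard error 0.0999, edgeR adjusted p = 4.2e-16). BCL2 rose by 0.51 on the log2 scale (standard error 0.038, edgeR adjusted p = 8.6e-16). E2F1 was at 113 and 108 CPM at 0 h, 104 and 111 CPM at 24 h and 90.3 and 87.9 CPM at 48 h, and E2F7, a repressor of the family, was at 29.3 and 32.3 CPM at 0 h, 41.2 and 40.4 CPM at 24 h and 30.6 and 29.6 CPM at 48 h. E2F1 fell by 0.27 on the log2 scale (standard error 0.0355, edgeR adjusted p = 9.8e-09). E2F7 fell by 0.44 on the log2 scale (standard error 0.0481, edgeR adjusted p = 1e-10).

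Genes of the histone H3 lysine 27 machinery changed one by one. KDM6B, a target of the inhibitor, was at 7.42 and 8.16 CPM at 0 h, 16.1 and 16.6 CPM at 24 h and 23.7 and 22.8 CPM at 48 h, rising on both days. KDM6B rose by 0.51 on the log2 scale (standard error 0.0602, edgeR adjusted p = 5.8e-10). KDM6A, its X-linked relative, was at 38.5 and 42.2 CPM at 0 h, 38.1 and 39.5 CPM at 24 h and 42.8 and 44.8 CPM at 48 h, a call that was lost under 1 of 16 alternatives. KDM6A rose by 0.17 on the log2 scale (standard error 0.046, edgeR adjusted p = 0.0013). EZH2, the methyltransferase of Polycomb repressive complex 2, was at 118 and 119 CPM at 0 h, 126 and 128 CPM at 24 h and 87.5 and 87.6 CPM at 48 h and fell after 24 h. EZH2 fell by 0.54 on the log2 scale (standard error 0.0324, edgeR adjusted p = 6.4e-19). PHF19, a Polycomb-like subunit, fell on both days and was at 63.2 and 64.3 CPM at 0 h, 37.9 and 37.6 CPM at 24 h and 16.8 and 16.8 CPM at 48 h. PHF19 fell by 1.17 on the log2 scale (standard error 0.0498, edgeR adjusted p = 1.9e-24). AEBP2, another accessory subunit, was at 29.7 and 29.0 CPM at 0 h, 34.3 and 33.1 CPM at 24 h and 56.8 and 56.8 CPM at 48 h and rose. AEBP2 rose by 0.75 on the log2 scale (standard error 0.0433, edgeR adjusted p = 1.2e-19). Of 13 subunits in all, 4 were higher and 5 lower. Of 19 histone lysine demethylases, 10 were higher and 6 lower, among them KDM5B, which acts on lysine 4 and was at 98.6 and 103 CPM at 0 h, 129 and 130.5 CPM at 24 h and 195 and 209 CPM at 48 h. KDM5B rose by 0.64 on the log2 scale (standard error 0.0327, edgeR adjusted p = 1.6e-21). Of 25 genes that the study names for GSK-J4 and that could be tested, 13 were lower and 3 higher at 48 h than at 24 h. They were chosen on these samples and are no independent evidence of a direction. CDK2, CDK4, CTCF and EED fell, with log2 fold changes of -0.34, -0.30, -0.32 and -0.40, and NAV2, a neuron navigator, was at 1.93 and 2.03 CPM at 0 h, 3.54 and 2.85 CPM at 24 h and 7.38 and 6.96 CPM at 48 h and rose. NAV2 rose by 1.17 on the log2 scale (standard error 0.115, edgeR adjusted p = 4.5e-12). CDK6, RB1 and E2F8 had log2 fold changes of -0.032, 0.027 and -0.092, which did not pass the test, and the sign for CDK6 turned with upper quartiles.

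The 12 largest rises were taken among called genes with a mean of 5 CPM or more at 24 h or at 48 h and no overlap between the times. They came from several functions, and 6 of the 12 were under 1 CPM at 24 h. Genes under 5 CPM at 24 h met the limit only through the 48 h libraries, where they are high, so that the ranking is a description. AC079466.1, a gene of unstated function, had 4 and 5 counts at 24 h and 637 and 458 at 48 h, or 0.0843 and 0.106 CPM at 24 h and 9.83 and 9.27 CPM at 48 h. AC079466.1 rose by 6.61 on the log2 scale (standard error 0.223, edgeR adjusted p = 2.1e-28). TMEM200A, a membrane protein of unclear function (chromosome 6, 130687162 to 130764212), was at 0 and 0.0844 CPM at 0 h, 0.443 and 0.192 CPM at 24 h and 5.13 and 5.91 CPM at 48 h. TMEM200A rose by 4.10 on the log2 scale (standard error 0.226, edgeR adjusted p = 2.3e-20). EDNRB, the endothelin receptor that marks neural crest and melanoblast precursors (chromosome 13, 78469616 to 78549664), fell on the first day and rose on the second and was at 1.13 and 1.27 CPM at 0 h, 0.464 and 0.532 CPM at 24 h and 6.13 and 6.13 CPM at 48 h. EDNRB rose by 3.62 on the log2 scale (standard error 0.179, edgeR adjusted p = 4.9e-22). SDK2, a synaptic adhesion protein (chromosome 17, 71330523 to 71640584), was at 3.45 and 4 CPM at 0 h, 3.29 and 4.32 CPM at 24 h and 33.8 and 35.0 CPM at 48 h. SDK2 rose by 3.17 on the log2 scale (standard error 0.0808, edgeR adjusted p = 4.8e-33). The 4 earlier libraries of SDK2 did not separate by time, and both 48 h libraries stood far above them. TRANK1 was at 2.07 and 1.60 CPM at 0 h, 2.49 and 2.45 CPM at 24 h and 15.7 and 17.1 CPM at 48 h. TRANK1 rose by 2.73 on the log2 scale (standard error 0.102, edgeR adjusted p = 9.2e-27). NTNG2, which encodes a netrin-G that guides axons, was at 0.11 and 0.253 CPM at 0 h, 1.81 and 2.23 CPM at 24 h and 11.8 and 11.9 CPM at 48 h. NTNG2 rose by 2.55 on the log2 scale (standard error 0.116, edgeR adjusted p = 2e-23). SLC12A3, the sodium chloride cotransporter of the kidney (chromosome 16, 56899119 to 56949762), rose on both days and was at 0.497 and 0.45 CPM at 0 h, 19.3 and 17 CPM at 24 h and 114 and 117 CPM at 48 h. SLC12A3 rose by 2.67 on the log2 scale (standard error 0.0467, edgeR adjusted p = 2.8e-39). CRH, the corticotropin-releasing hormone, was at 1.21 and 0.957 CPM at 0 h, 25.9 and 24.9 CPM at 24 h and 143 and 147 CPM at 48 h. CRH rose by 2.51 on the log2 scale (standard error 0.0408, edgeR adjusted p = 3.1e-40). The potassium channel KCNK9 was at 0.276 and 0.225 CPM at 0 h, 0.717 and 0.404 CPM at 24 h and 5.36 and 4.78 CPM at 48 h, and TBC1D30 was at 0.331 and 0.253 CPM at 0 h, 0.59 and 1.02 CPM at 24 h and 6.05 and 5.81 CPM at 48 h. KCNK9 rose by 3.17 on the log2 scale (standard error 0.192, edgeR adjusted p = 7.1e-19). TBC1D30 rose by 2.88 on the log2 scale (standard error 0.172, edgeR adjusted p = 4.7e-19).

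**Figure D5:**
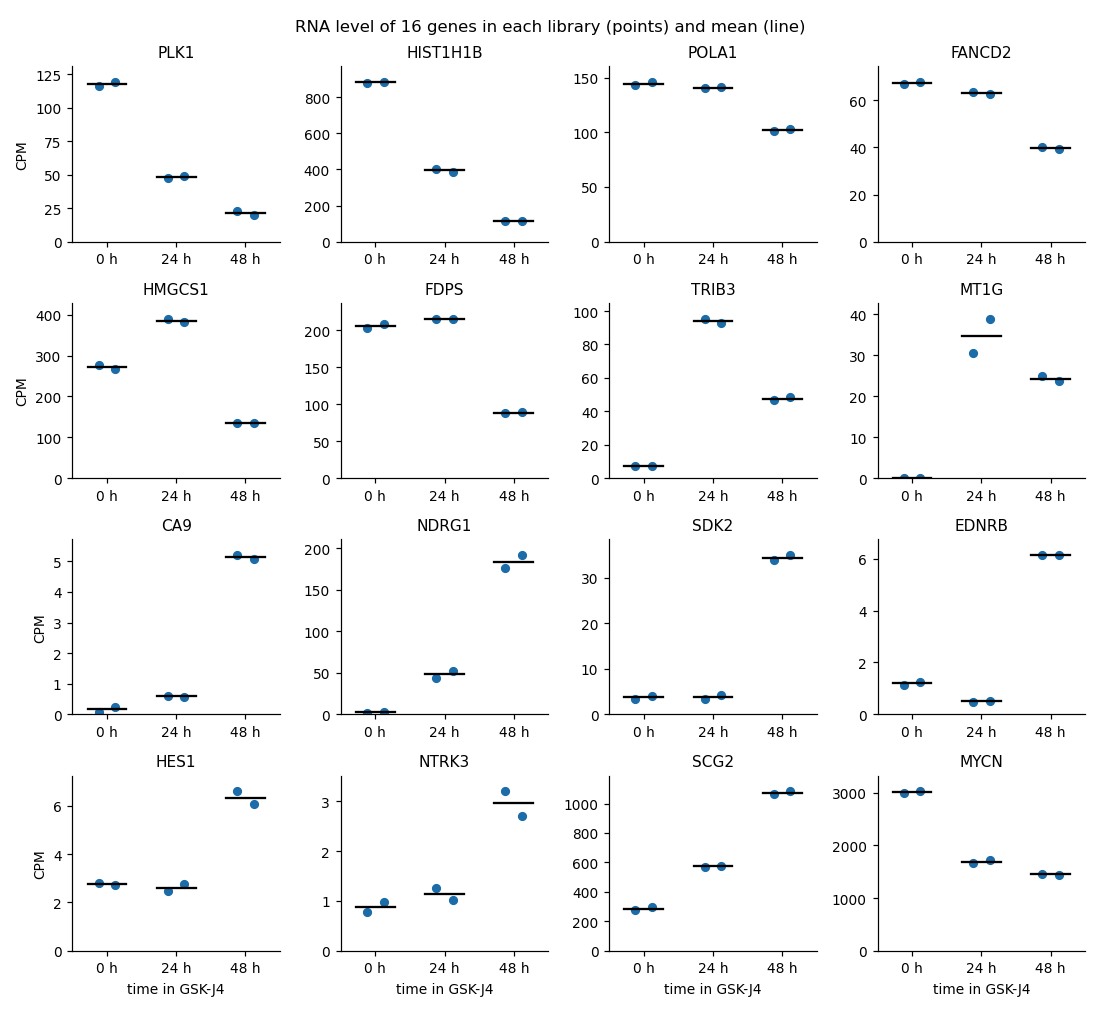
RNA level in CPM (y axis, from 0) of 16 genes at 0 h, 24 h and 48 h of GSK-J4; points are the 2 libraries of a time and lines their means. PLK1 and HIST1H1B are lower at each step, POLA1 and FDPS are lower after 24 h, TRIB3 and MT1G are highest at 24 h, and SDK2, HES1 and NTRK3 are higher at 48 h than at both earlier times.

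Among the 12 largest falls of called genes at 5 CPM or more at 24 h or 48 h were 6 histones and the thiolase gene ACAT2. The others had other functions. Genes under 5 CPM at 48 h met the limit only through the 24 h libraries, where they are high, so that this ranking is a description too. KLF15, a metabolic transcription factor (chromosome 3, 126061478 to 126076251), was at 16.6 and 16.4 CPM at 0 h, 8.43 and 6.58 CPM at 24 h and 1.93 and 1.90 CPM at 48 h. KLF15 fell by 1.97 on the log2 scale (standard error 0.123, edgeR adjusted p = 2.1e-18). SERPINF1, which encodes a secreted antiangiogenic serpin, was at 21.1 and 21.5 CPM at 0 h, 7.42 and 7.21 CPM at 24 h and 2.39 and 2.51 CPM at 48 h. SERPINF1 fell by 1.58 on the log2 scale (standard error 0.107, edgeR adjusted p = 3.4e-17). Both fell on each day. FUT1, a fucosyltransferase (chromosome 19, 49251268 to 49258647), was at 0.773 and 0.422 CPM at 0 h, 16.2 and 15.7 CPM at 24 h and 4.23 and 3.97 CPM at 48 h. FUT1 fell by 1.96 on the log2 scale (standard error 0.0921, edgeR adjusted p = 7.5e-23). SLIT2, the axon repellent (chromosome 4, 20253528 to 20622184), was at 6.93 and 6.81 CPM at 0 h, 16.6 and 15.5 CPM at 24 h and 4.57 and 4.72 CPM at 48 h, and RAPGEF3, the cyclic AMP sensor EPAC1, was at 2.62 and 2.25 CPM at 0 h, 5.80 and 5.53 CPM at 24 h and 1.84 and 2.04 CPM at 48 h. SLIT2 fell by 1.80 on the log2 scale (standard error 0.084, edgeR adjusted p = 6e-23). RAPGEF3 fell by 1.55 on the log2 scale (standard error 0.133, edgeR adjusted p = 6.8e-14). For these 3 genes the peak was at 24 h, and SLIT2 and RAPGEF3 ended below their 0 h level. Of genes whose 24 h mean lay within 10% of the 0 h mean, the larger rises after SDK2 included those of RP11-21L23.2, MID1, HES1 and KCTD12. MID1, a microtubule-bound ubiquitin ligase, was at 14.7 and 17.8 CPM at 0 h, 16 and 16.5 CPM at 24 h and 43.5 and 43.8 CPM at 48 h, and KCTD12, a subunit of GABA-B receptors, was at 108 and 112 CPM at 0 h, 103 and 97.6 CPM at 24 h and 238 and 229 CPM at 48 h. MID1 rose by 1.42 on the log2 scale (standard error 0.0566, edgeR adjusted p = 1.2e-25). KCTD12 rose by 1.22 on the log2 scale (standard error 0.0324, edgeR adjusted p = 2.2e-32). RP11-21L23.2 had a log2 fold change of 1.47. The larger falls in that group, beside those of FDPS and PCYT2, included those of BCYRN1, a neuronal cytoplasmic RNA, FBLL1, a fibrillarin-like gene, and CH17-164J11.1, with log2 fold changes of -1.0, -0.91 and -0.88. BCYRN1 derives from an Alu repeat, and its reads are uncertain for that reason.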

How the data were processed

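RNA-seq counts of BE2C cells at 0 h, 24 h and 48 h of GSK-J4 (12 files, 2 for each library) were analysed. The authors deposited counts of reads per gene. Per the methods, total RNA was extracted from cells, and paired-end reads were aligned to human GRCh37 and counted with htseq-count. Per the submitters' processing notes the tools were CASAVA, STAR 2.5.3a and HTSeq. The annotation is named as a mouse release, although all symbols in the files are human. The 26 other files of the series were not used here. Reads on no gene, on several genes or not unique stayed out of library sizes (no gene feature: 11.3% to 14.2% of reads). Files with the same first replicate number were summed: they differed by a chi-square of 1.48 to 1.65 per degree of freedom, and files of different libraries by 1.89 to 3.01. CPM were scaled by TMM factors.

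All 6 libraries entered 1 fit (edgeR 4.0.16, quasi-likelihood F test, filterByExpr, which kept 17734 of 50652 genes), with Benjamini-Hochberg adjustment over all genes and a threshold of 0.05. The main contrast was 48 h against 24 h. The design follows the study's groups. The study's own test was voom with limma, which was run here with limma 3.58.1 as an alternative beside DESeq2 1.42.0, other scalings and filters, single files, thinned libraries, a replicate block and leaving out each library. Coordinates are from GENCODE v44lift37 on GRCh37, and promoter windows from RefSeq. The script was tested on simulated data.

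Named genes are the 12 largest rises and falls among called genes at 5 CPM or more at 24 h or 48 h whose groups do not overlap, up to 3 called members a list and direction, the genes the study names, and the 6 largest in each direction among genes within 10% of the 0 h mean at 24 h, and the 6 largest in each direction among those that reversed. Genes named outside these rules (ANKRD37, ASNS, BRCA1, CHAC1, COL5A1, DDIT3, FN1, HAND2, INSIG1, LDHA, MT1F, MT1H, MT1X, MT2A, NEK2, P4HA1, SC5D, SREBF2, VEGFA, VIM, WEE1 and those of the closing observations) were picked after their values were seen. Some genes that the rules name are not reported here. Members and lists were chosen with earlier results of these data known. Of 2010 listed entries, 14 matched no symbol and 5 matched an older or newer one.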

Additional observations from a re-analysis of the deposited data

Results flagged for a closer look

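In 1376 genes the changes of both days passed edgeR's test and ran in opposite directions, 550 falling and then rising and 826 rising and then falling. All 1376 also passed a test of the difference between the 2 days. Choosing called changes of opposite sign makes that outcome nearly certain, so that this test adds no evidence. The 12 given here have the largest differences, 6 in each direction, among those at 5 CPM or more at 24 h or 48 h. Genes under that limit at either time met it only through the other, where they are high. The 12 were chosen on both contrasts, which use the same 24 h libraries, so that an error in those libraries moves the 2 changes apart. Their adjusted p-values are for the contrast on which they were ranked and are a description. No explanation was tested.

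6 of them fell and then rose. EDNRB, described above, had an edgeR adjusted p of 1.4e-13 for the difference. LAYN, a hyaluronan receptor, was at 13.1 and 12 CPM at 0 h, 10.3 and 10.4 CPM at 24 h and 31.5 and 31.0 CPM at 48 h (edgeR adjusted p = 2.6e-17). SGK1, a kinase of salt and stress responses, was at 19.4 and 19.8 CPM at 0 h, 10.3 and 11.2 CPM at 24 h and 18.4 and 18.4 CPM at 48 h (edgeR adjusted p = 1.7e-15). LAYN ended above its 0 h level and SGK1 just below it. The protocadherin PCDHA3 was at 3.37 and 3.71 CPM at 0 h, 2.21 and 2.83 CPM at 24 h and 5.48 and 5.34 CPM at 48 h (edgeR adjusted p = 8.3e-07). The microRNA host gene MIR100HG was at 10.8 and 10.5 CPM at 0 h, 7.08 and 7.21 CPM at 24 h and 14.9 and 13.6 CPM at 48 h (edgeR adjusted p = 3.2e-12). DGKK, a diacylglycerol kinase, was at 25.6 and 25.4 CPM at 0 h, 14.4 and 14.4 CPM at 24 h and 20.7 and 21.0 CPM at 48 h (edgeR adjusted p = 1.5e-14), and its rise left it below the 0 h level.

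The other 6 rose from near the floor and then fell. MT1G (edgeR adjusted p = 5.8e-32), MT1E (edgeR adjusted p = 4.3e-22) and GDF15 (edgeR adjusted p = 5.1e-22) are described above. FAM129A, which the stress response induces, had 1 and 0 counts at 0 h and was at 6.01 and 6.00 CPM at 24 h and 2.10 and 2.53 CPM at 48 h (edgeR adjusted p = 1.5e-22). INHBE, an inhibin subunit, had 1 and 3 counts at 0 h and was at 29.0 and 29.3 CPM at 24 h and 19.3 and 18.9 CPM at 48 h (edgeR adjusted p = 2.3e-34). RP4-756G23.5 had 3 counts in each 0 h library and was at 10.3 and 9.98 CPM at 24 h and 7.52 and 7.59 CPM at 48 h (edgeR adjusted p = 7.8e-25). All 6 remained far above 0 h at 48 h.

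Reads on no gene feature, which enter no comparison, made up a mean of 14% at 48 h, above the 11.5% to 11.8% at 24 h and the 11.3% to 11.5% at 0 h.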

How the results depend on the processing

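Of 291 named genes that passed the test, 243 kept their direction and their side of the threshold under all 16 alternatives. Also requiring an absolute log2 fold change above 0.5 left 3111 genes in the main comparison (1952 higher, 1159 lower), 3855 on the first day (2239 and 1616) and 2554 for the difference between the days (1077 and 1477), as a stricter rule must. DESeq2 called 7456 genes in the main comparison, 1816 genes as higher in the difference between the days (2729 with edgeR) and 26 protocadherins as higher (40 with edgeR), and the cause was not tested. The replicate block gave 9658 calls. Samples with the same number did not deviate together (r = 0.018, 0.011 and 0.0037). Counting error is part of each difference, so that these values cannot show whether such samples share a culture or a batch. The main fit did not pair samples by number. Leaving out a library gave 7972 to 9699 calls in the main comparison, 8602 to 9619 on the first day and 4428 to 5501 for the difference, and 29 to 40 higher protocadherins. Leaving out a library leaves its time with 1, which is assumed to vary like the other groups.

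Some values near 0 changed sign. The neuronal list median, less that of all genes, became -0.036 with no filter and -0.0051 with at least 10 counts in every library. CDKN1A became 0.0067 with library totals, 0.049 with upper quartiles, 0.015 with at least 10 counts and 0.045 with thinned libraries, and CDK6 became 0.030 with upper quartiles. With a library left out, CDKN1A ranged from -0.085 to 0.043, RB1 from -0.0090 to 0.050, MYC from -0.0024 to 0.41 and the fibroblast marker median, less that of all genes, from -0.0028 to 0.31. None of these gene values passed the test. Depth limits genes of a few counts, such as NTRK2.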

Other observations

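Lists of guidance, matrix and channel genes had shares of higher members of 32.7% to 37.5%, against 25.9% of all genes, and are given as a description. Semaphorins, ephrins and their receptors, which steer axons, had 18 of 48 higher and 9 lower. EPHA3, an ephrin receptor, had 2 and 0 counts at 24 h and 16 and 13 at 48 h, too few at 24 h for a fold to be given. EFNB2, an ephrin ligand, was at 139 and 139 CPM at 0 h, 78.8 and 81.1 CPM at 24 h and 46.7 and 45.8 CPM at 48 h. EFNB2 fell by 0.79 on the log2 scale (standard error 0.0368, edgeR adjusted p = 5.3e-23). Collagens had 9 of 27 higher and 4 lower. COL7A1, the anchoring fibril collagen, was at 0.276 and 0.422 CPM at 0 h, 0.632 and 0.532 CPM at 24 h and 3.18 and 2.85 CPM at 48 h. COL7A1 rose by 2.37 on the log2 scale (standard error 0.213, edgeR adjusted p = 3e-13). Potassium channels had 17 of 52 higher and 9 lower. KCNK13, a leak channel, was at 0.221 and 0.253 CPM at 0 h, 0.337 and 0.34 CPM at 24 h and 1.91 and 2.09 CPM at 48 h, and KCNJ3, an inward rectifier, was at 0.193 and 0.197 CPM at 0 h, 1.07 and 1.47 CPM at 24 h and 0.571 and 0.344 CPM at 48 h. KCNK13 rose by 2.55 on the log2 scale (standard error 0.267, edgeR adjusted p = 2.6e-11). KCNJ3 fell by 1.43 on the log2 scale (standard error 0.293, edgeR adjusted p = 5e-05). HOX genes had 2 of 15 higher and 5 lower. HOXD13, a posterior homeobox gene, was at 11 and 10.6 CPM at 0 h, 4.87 and 5 CPM at 24 h and 3.03 and 2.61 CPM at 48 h. HOXD13 fell by 0.80 on the log2 scale (standard error 0.119, edgeR adjusted p = 1.7e-07).

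Metabolic and stress lists were mixed. Heat shock genes had 4 of 17 higher and 6 lower, lysosome and autophagy genes 12 of 29 higher and 14 lower and polyamine genes 2 of 11 higher and 3 lower. NPC2, which carries cholesterol out of lysosomes, was at 0.718 and 1.13 CPM at 0 h, 3.18 and 3.17 CPM at 24 h and 6.85 and 6.66 CPM at 48 h. NPC2 rose by 1.09 on the log2 scale (standard error 0.118, edgeR adjusted p = 6.1e-11). SRM, the spermidine synthase, was at 55.0 and 54.2 CPM at 0 h, 34.9 and 33.9 CPM at 24 h and 20.3 and 20.8 CPM at 48 h. SRM fell by 0.74 on the log2 scale (standard error 0.0496, edgeR adjusted p = 2.2e-17). SAT1, which degrades polyamines, was at 3.56 and 4 CPM at 0 h, 4.89 and 3.83 CPM at 24 h and 6.39 and 6.62 CPM at 48 h. SAT1 rose by 0.57 on the log2 scale (standard error 0.111, edgeR adjusted p = 2e-05).

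The remaining lists are small and are given as a description, against 25.9% higher and 28.0% lower of all genes. Many members were of low level. Among all genes under 1 CPM 19% were higher and 3.19% lower, and at 1 to 10 CPM 27.9% and 17.9%. YAP and TEAD targets had 5 of 8 higher and 1 lower and Wnt targets 3 of 9 higher and 4 lower. Retinoid genes had 2 of 9 higher and 4 lower and interferon genes 3 of 19 higher and 1 lower. CYP26B1, which degrades retinoic acid, was at 0 and 0.0563 CPM at 0 h, 0.485 and 0.873 CPM at 24 h and 1.78 and 1.52 CPM at 48 h. CYP26B1 rose by 1.29 on the log2 scale (standard error 0.259, edgeR adjusted p = 3.8e-05). In antigen presentation 5 of 9 genes were higher and the other 4 did not pass the test. HLA-E, a class I molecule that shares sequence with its relatives, was at 0.359 and 0.591 CPM at 0 h, 1.18 and 1.43 CPM at 24 h and 2.62 and 2.79 CPM at 48 h. HLA-E rose by 1.05 on the log2 scale (standard error 0.183, edgeR adjusted p = 3.3e-06). The MYC and MAX network had 4 of 12 higher and 4 lower, and MYCL was at 5.02 and 5.23 CPM at 0 h, 5.82 and 5.77 CPM at 24 h and 2.78 and 2.43 CPM at 48 h. MYCL fell by 1.14 on the log2 scale (standard error 0.119, edgeR adjusted p = 2.5e-11). Clock genes had 5 of 14 higher and 3 lower, and RORA, a nuclear receptor, was at 4.36 and 3.38 CPM at 0 h, 11.8 and 12.1 CPM at 24 h and 33.7 and 33.6 CPM at 48 h. RORA rose by 1.49 on the log2 scale (standard error 0.0618, edgeR adjusted p = 5.8e-25).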
